A study of Mus musculus with 8 samples.

Results

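The ubiquitin-specific proteases other than Usp1 were described in mouse trophectoderm at embryonic day 4.5. Members were the genes whose platform symbol is Usp followed by a number, with at most 1 further letter, on a probe set that carries that symbol alone. Usp1 and Usp9y were left out, and for a gene with several probe sets the one with the highest mean was kept. This gave 38 genes of the 14860 measured under 1 symbol, read from 40 probe sets. Of 48 Usp genes sorted by role, the other 10 (Usp18, Usp30, Usp31, Usp32, Usp34, Usp35, Usp36, Usp40, Usp42 and Usp51) were not analysed here.

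The pools came from dams on a high fat diet (Teklad 06414) or on a control diet (Lab Diet 5015), each fed from weaning to 16 weeks of age. All dams and sires were C57BL/6J, with no engineered allele in either group. Each sample was a pool of abembryonic trophectoderm, the outer blastocyst epithelium away from the inner cell mass, cut from 5 blastocysts and hybridised to 1 Affymetrix array. There were 4 high fat diet pools and 4 control diet pools, numbered 1 to 4 within each diet. Whether pools share dams is not stated, so the p-values describe variation among pools. Values are log2 signals after RMA, a method that corrects background, normalizes arrays and summarises probes. Array count limits their precision.

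Ubiquitin is a small protein that cells attach to other proteins to mark them for the proteasome, for sorting through membranes or for signalling. Ubiquitin-specific proteases are cysteine proteases that cut it off again, and they form the largest family of deubiquitinases. Members differ mainly in what they act on, from histones to endosomal receptors to free ubiquitin chains. In the early mouse embryo Usp9x is known under the name Fam as a partner of cell adhesion proteins.

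Trophectoderm identity was checked first: 12 of 14 measured trophectoderm markers lay above background on all 8 arrays. Their mean level ran from 8.57 to 9.11 over high fat diet pools and from 8.90 to 9.19 over control diet pools. None passed limma, and at an unadjusted p under 0.05 none read higher and 2 of 14 read lower (14.3%, against 1.79% of all tested probe sets), Fgfr2 by -1.78 and Gata3 by -1.49, which are named after their values were seen. Background was set per array at the 95th percentile of its 843 probe sets for chemosensory receptors, and it ran from 6.15 to 6.65 on high fat diet arrays and from 5.87 to 6.13 on control diet arrays. Over all 16015 tested probe sets the median difference, high fat diet minus control diet, was +0.22, and 78.7% of them had a difference above 0. The array least like the rest was high fat diet replicate 3, whose mean r with the remaining arrays was 0.832, where each of those had between 0.879 and 0.890. Markers of other cells were measured too. The mean level of 11 inner cell mass markers ran from 7.08 to 7.47 over high fat diet pools and from 6.31 to 7.68 over control diet pools. That of 11 primitive endoderm markers ran from 6.88 to 7.18 over high fat diet pools and from 6.66 to 6.83 over control diet pools, with 6 of 11 above background on all 8 arrays in each list. That of 12 uterine markers ran from 6.00 to 6.71 over high fat diet pools and from 5.82 to 5.99 over control diet pools, with 5 of 12 above background on all arrays. That of 7 blood and immune markers ran from 5.05 to 5.35 over high fat diet pools and from 4.84 to 4.93 over control diet pools, with 0 of 7 above background on all arrays. None of these lists had a gene that passed limma. At an unadjusted p under 0.05, where 30.1% of all tested probe sets read higher, 4 of 11 inner cell mass, 5 of 11 primitive endoderm, 8 of 12 uterine and 3 of 7 blood and immune markers did. The part of these cells in the differences below was not tested, and in bulk pools fewer cells of a type and less RNA per cell cannot be told apart.

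Members had probe sets in all 4 quartiles of mean level over the tested probe sets, from a mean of 4.24 for Usp26 to 10.79 for Usp7, as the plot of all members by level shows. Of 38 members, 8 lay above background on all 8 arrays, 17 on some arrays and 13 on none, against 24.2% of all tested probe sets on all arrays and 49.6% on none. The members above background everywhere were Usp2, Usp7, Usp14, Usp16, Usp19, Usp22, Usp48 and Usp53. After Usp7 the highest mean levels were those of Usp48, Usp8, Usp16, Usp14 and Usp15. Because these are signals of different probe sets, this order is one of array brightness and does not rank transcript amounts.

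**Figure D1:**
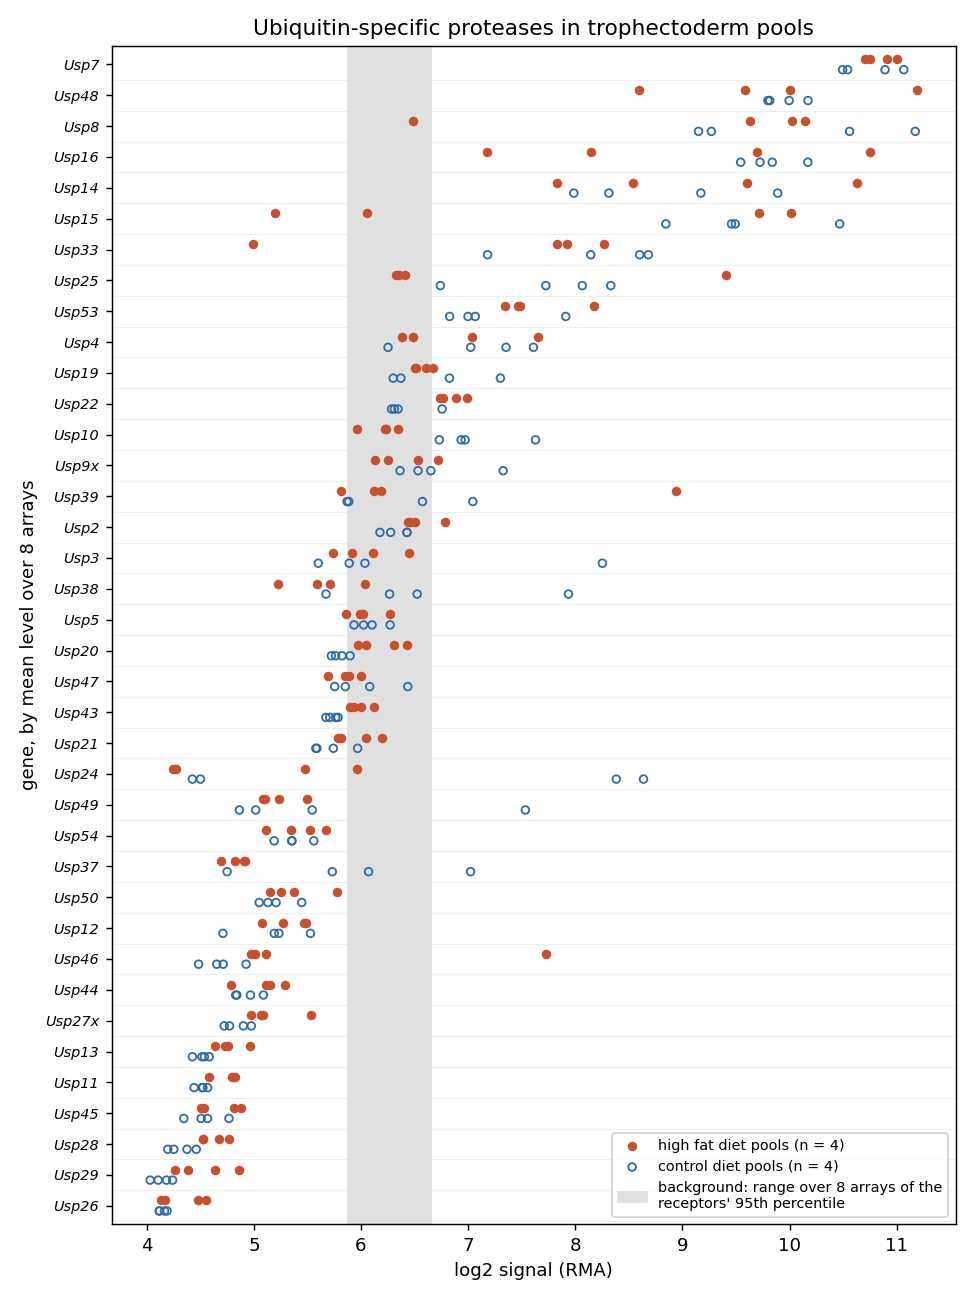
Log2 signal of the 38 family members in every pool, ordered down the page by mean level; filled points are the 4 high fat diet pools, open points the 4 control diet pools, and the grey band spans the background of the 8 arrays. Usp7 lies highest with little spread, several bright members such as Usp15 and Usp8 have high fat diet pools far to the left of the others, and 13 members have no pool above its own array's background.

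No member passed the diet comparison. With limma, 0 of 38 members had an adjusted p under 0.05 in either direction, where 0% of all tested probe sets passed in the higher direction and 0.00624% in the lower direction, which is the probe set of Usp1 alone. At an unadjusted limma p under 0.05, 8 members read higher (30.1% of all tested probe sets did) and 2 members read lower (1.79% of all tested probe sets did). The groups did not overlap on 8 members in the higher direction (background 25.4%) and on 1 member in the lower direction (background 0.855%). The 8 of 38 higher members are a share below the background in both counts. With median centring of the arrays, quantile normalization or cyclic loess, 0 members read higher at that p, so no rise of any member is read from these counts. The count of 8 was 5 without control diet replicate 2 or without control diet replicate 3. The count of 2 lower was 1 when high fat diet replicate 1 or 3, or control diet replicate 1, 2 or 3, was left out, and it was 3 without control diet replicate 4 or without high fat diet replicate 2. The count of 1 member apart in the lower direction was 3 without control diet replicate 4 (1.79% of all tested) and 2 without high fat diet replicate 4 (1.56% of all tested).

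The members' differences centred close to 0. Their median was +0.11 on the log2 scale against +0.22 for all tested probe sets, and its sign turned to -0.07 with median centring, -0.02 with quantile normalization and -0.07 with cyclic loess. Above 0 lay 21 members and below 0 lay 17, against 21 to 24 below 0 under those scalings, and 24 of 38 lay below the median of all tested probe sets. The median was +0.07 without high fat diet replicate 3 and +0.005 without high fat diet replicate 4. The differences ran from -1.82 for Usp15 to +1.01 for Usp46.

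**Figure D2:**
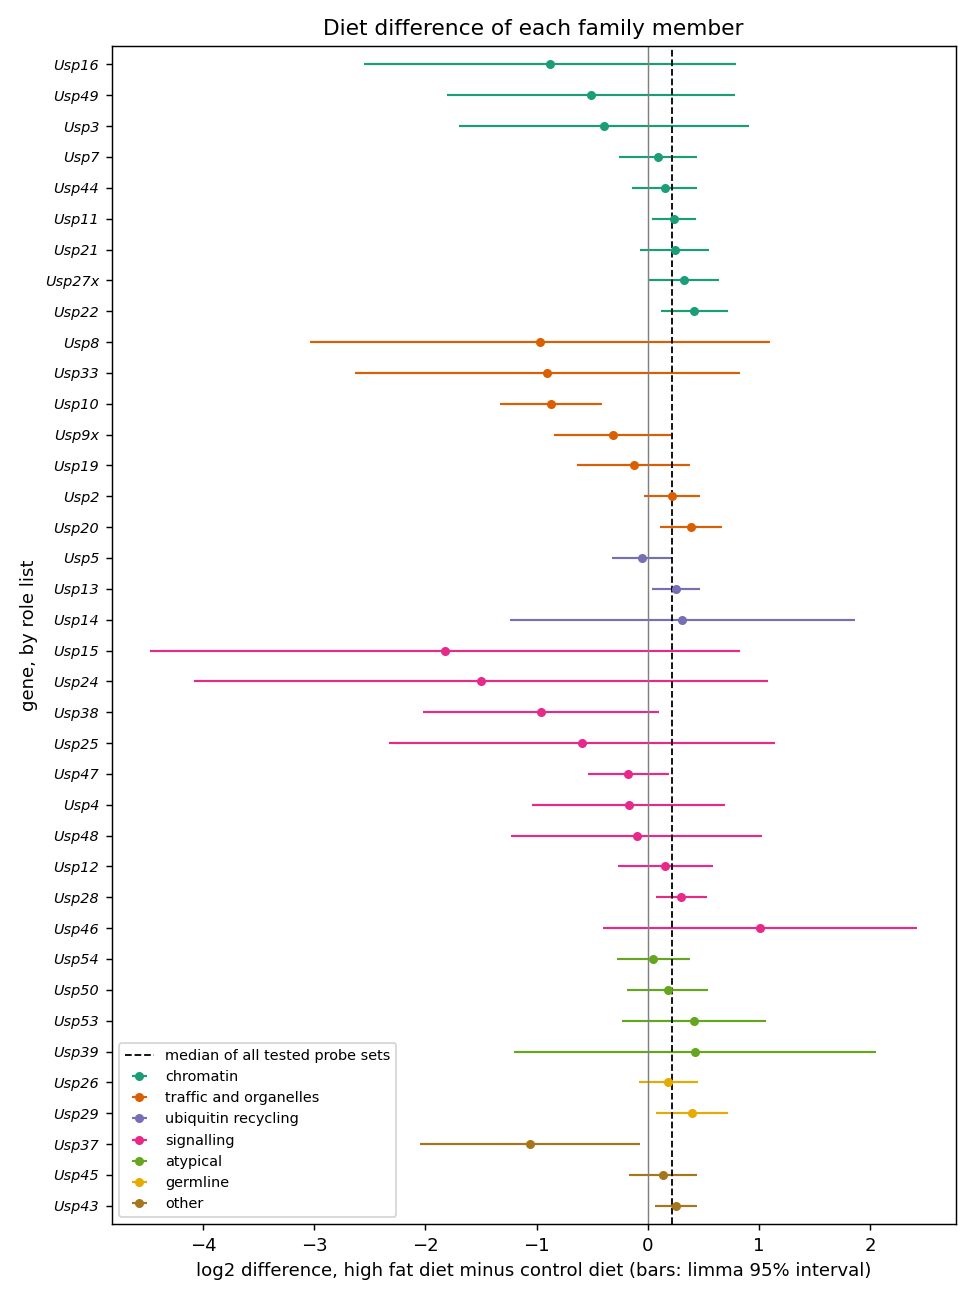
Log2 difference, high fat diet minus control diet, of each member with its limma 95% interval, grouped by role; the dashed line is the median of all tested probe sets, +0.22, and the solid line is 0. Intervals are narrow for dim or steady members such as Usp43 and widest for Usp15 and Usp24; the intervals of Usp10 and Usp37 lie wholly below 0, and those of 8 members, Usp11, Usp13, Usp20, Usp22, Usp27x, Usp28, Usp29 and Usp43, wholly above it.

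Among the proteases that act in membrane traffic and on organelles, Usp10 read lower with the high fat diet and had the smallest p of all 38 members. Usp10 is a deubiquitinase of p53 and a binding partner of the stress granule protein G3bp1. Usp10 (probe set 6979519) read 5.97, 6.35, 6.23 and 6.23 in high fat diet pools 1 to 4, and 7.63, 6.73, 6.97 and 6.93 in control diet pools 1 to 4. Every high fat diet pool was below every control diet pool. Usp10 averaged 6.19 ± 0.16 in high fat diet pools and 7.07 ± 0.39 in control diet pools (SD, n = 4 each), a log2 difference of -0.87 with an SE of 0.20, or 1.83-fold lower as measured. It did not pass over all tested probe sets (limma adjusted p = 0.115, from 0.074 to 0.386 over the alternatives run). Only 1 of 4 high fat diet pools lay above its background, whereas all 4 control diet pools did, so the measured size is not exact. With the high fat diet values raised to background, the means differed by at least 1.59-fold, and against the 99th percentile of the receptors no fold above 1 is left.

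The other members of this list were less separated. Usp8, an endosomal deubiquitinase that works with Stam and the ESCRT machinery on receptor sorting, read 10.02, 9.63, 6.49 and 10.14 in high fat diet pools and 10.56, 9.27, 11.17 and 9.15 in control diet pools. A single high fat diet pool, replicate 3, read below background while the other pools of both diets lay between 9.15 and 11.17. Usp8 differed by -0.97 with an SE of 0.89 (limma adjusted p = 0.442), and by -0.11 without that pool. Usp9x, which acts on adhesion and polarity proteins, read 6.53, 6.13, 6.25 and 6.72 in high fat diet pools and 7.33, 6.65, 6.36 and 6.53 in control diet pools. The groups overlapped for Usp9x, with a difference of -0.31 ± 0.23 (SE; limma adjusted p = 0.347) that was -0.11 without control diet replicate 1. Usp9x lay above background on 2 of 4 high fat diet arrays and on 4 of 4 control diet arrays, whose background was lower. Whether its probe set also reads the related Y-linked gene Usp9y was not tested. The Y-linked gene Eif2s3y read 4.90, 6.11, 4.82 and 4.87 in high fat diet pools and 6.17, 5.69, 6.97 and 6.06 in control diet pools. It was above background on 0 of 4 high fat diet arrays and 2 of 4 control diet arrays, and Kdm5d, the other measured gene of the 6 sex-linked ones listed, on no array. The part of the sex of the embryos in these differences was not tested.

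Usp20 is a deubiquitinase that acts in receptor recycling. It read 6.31, 6.04, 6.43 and 5.98 in high fat diet pools and 5.72, 5.82, 5.76 and 5.90 in control diet pools. The groups did not overlap, but Usp20 was above background on 1 of 8 arrays, a high fat diet one, and it did not pass (difference +0.39, SE 0.12, limma adjusted p = 0.117). With cyclic loess the difference was +0.11. Of the 7 measured members of the traffic and organelle list, 5 had differences below 0, and their median was -0.31 against +0.22 over all tested probe sets. Under the other scalings 5 or 6 of the 7 lay below 0.

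The promoter window of Usp10 is shown beside those of Usp7, the brightest member, and Usp29, a germline member, because they stand for a member separated between diets, a bright one and one above background on no array. RefSeq windows of GRCm38.p6 hold 250 bases before to 50 bases after the annotated start, and 29 of 38 members matched. Capitals mark the exact letters CCAAT or GGGCGG on either strand. TATAAA, also searched on both strands, was in none of the 3 windows. Matches of these motifs may overlap.
Usp10 (chr8:119910110-119910409, + strand): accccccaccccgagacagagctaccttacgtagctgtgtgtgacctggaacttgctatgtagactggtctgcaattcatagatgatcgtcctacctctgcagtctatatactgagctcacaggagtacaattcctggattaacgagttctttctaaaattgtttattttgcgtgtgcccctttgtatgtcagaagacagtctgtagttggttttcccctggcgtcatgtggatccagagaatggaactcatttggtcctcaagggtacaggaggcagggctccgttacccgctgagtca
Usp7 (chr16:8738293-8738592, - strand): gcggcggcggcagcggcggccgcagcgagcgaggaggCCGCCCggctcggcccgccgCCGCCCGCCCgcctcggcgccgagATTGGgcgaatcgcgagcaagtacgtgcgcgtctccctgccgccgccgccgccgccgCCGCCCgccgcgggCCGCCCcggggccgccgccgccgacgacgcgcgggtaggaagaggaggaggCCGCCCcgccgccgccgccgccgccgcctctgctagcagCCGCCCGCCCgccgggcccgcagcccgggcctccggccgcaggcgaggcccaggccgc
Usp29 (chr7:6730333-6730632, + strand): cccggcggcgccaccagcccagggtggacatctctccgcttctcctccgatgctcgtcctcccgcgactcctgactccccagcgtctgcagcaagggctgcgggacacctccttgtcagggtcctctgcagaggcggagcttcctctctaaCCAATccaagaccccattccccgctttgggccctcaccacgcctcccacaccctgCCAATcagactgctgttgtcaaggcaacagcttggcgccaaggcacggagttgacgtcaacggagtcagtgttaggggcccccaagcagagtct

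The 3 windows differ in CpG content, with 63 CpG dinucleotides for Usp7, 17 for Usp29 and 8 for Usp10. The Usp7 window holds 8 copies of the GC box letters GGGCGG, and the other windows hold 0. Over the 29 matched members the median was 28 CpG dinucleotides, against 13 over 17491 protein-coding promoters. The GC box letters were in 19 of 29 member windows (65.5%) and in 46.3% of protein-coding promoters. CCAAT was in 9 of 29 member windows (31.0%) and in 39.0% of protein-coding promoters. TATAAA was in 1 of 29, that of Usp19, and in 13.3% of protein-coding promoters. By array level, the median number of CpG dinucleotides was 33 for 5 members above background on all arrays, 34 for 13 members above it on some and 18 for 11 members above it on none. These are descriptions of letters in a window and say nothing of which factors bind there.

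The chromatin members include enzymes that remove ubiquitin from histones. Usp22, the catalytic subunit of the deubiquitinase module of the SAGA coactivator, read 6.77, 6.89, 6.99 and 6.74 in high fat diet pools and 6.76, 6.29, 6.31 and 6.35 in control diet pools. Control diet replicate 1 lay within the high fat diet values, and the other 3 control diet pools lay below all of them. Usp22 averaged 6.85 ± 0.12 in high fat diet pools and 6.42 ± 0.22 in control diet pools (SD, n = 4 each), a log2 difference of +0.42 with an SE of 0.13 that did not pass (limma adjusted p = 0.117). Relative to the median of all tested probe sets the difference was +0.20, and with cyclic loess the difference itself was +0.12. Usp22 lay above background on all 8 arrays.

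Usp7, which controls the stability of p53 through Mdm2 and also acts on the DNA methylation cofactor Uhrf1, had the smallest within-group SD of the 10 members in the brightest quartile of level. It read 10.70, 11.00, 10.91 and 10.75 in high fat diet pools and 10.89, 10.50, 10.54 and 11.07 in control diet pools. The difference was +0.09 with a 95% interval from -0.26 to +0.44 (limma adjusted p = 0.662), and it was -0.09 with median centring. Usp16, which removes ubiquitin from histone H2A, read 9.70, 10.75, 8.15 and 7.17 in high fat diet pools and 10.17, 9.72, 9.84 and 9.54 in control diet pools. Pools 3 and 4 of the high fat diet lay below every control diet pool, and pool 2 lay above them. The difference of Usp16 was -0.88 with an SE of 0.72 (limma adjusted p = 0.394), and it was -0.29 without high fat diet replicate 4 and -1.48 without high fat diet replicate 2.

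Usp11, a deubiquitinase of DNA repair proteins, was above background on no array. It read 4.79, 4.58, 4.82 and 4.81 in high fat diet pools and 4.53, 4.44, 4.52 and 4.57 in control diet pools, so its groups lay apart at a level that cannot be told from background. Over the 9 measured chromatin members, 6 had differences above 0 and 3 below 0, against 4 above 0 with median centring or cyclic loess and 5 with quantile normalization. Their median was +0.15 against +0.22 over all tested probe sets, and 0 of 9 passed.

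Among the members that recycle ubiquitin, Usp14 sits on the proteasome and trims chains from its substrates. Usp14 read 9.61, 7.83, 8.54 and 10.63 in high fat diet pools and 7.99, 9.17, 8.31 and 9.89 in control diet pools. The groups overlapped over most of their range, with a difference of +0.31 and a 95% interval from -1.24 to +1.86 (limma adjusted p = 0.746). The sign turned to -0.18 without high fat diet replicate 4. Usp5, which takes apart free ubiquitin chains, and its relative Usp13 differed by -0.05 and +0.26. Usp5 lay above background on 0 of 4 high fat diet arrays and on 3 of 4 control diet arrays, whose background was lower. Usp13 lay above it on no array.

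The signalling list held both ends of the range of differences and the largest spread. Usp15, which acts on the TGF-beta receptor pathway, read 9.71, 10.02, 5.19 and 6.06 in high fat diet pools and 9.46, 8.84, 10.47 and 9.49 in control diet pools. High fat diet pools 3 and 4 lay below their array's background, while pools 1 and 2 lay among the control diet values. Usp15 averaged 7.75 ± 2.48 in high fat diet pools and 9.57 ± 0.67 in control diet pools (SD, n = 4 each). The difference of -1.82 had an SE of 1.14 and did not pass (limma adjusted p = 0.277). It was -0.97 without high fat diet replicate 3. With values under background raised to it, the group means differed by at least 2.59-fold, and by at least 2.00-fold against the 99th percentile.

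**Figure D3:**
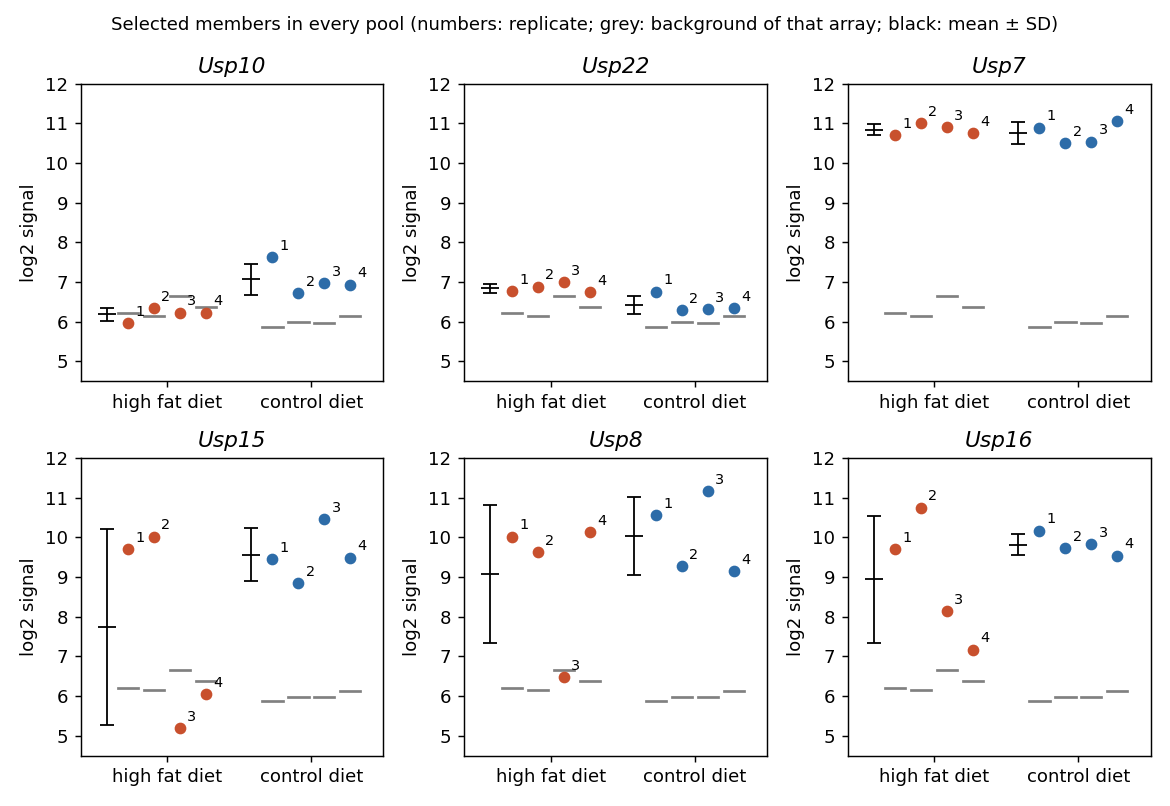
Log2 signal of 6 members in each pool, high fat diet left and control diet right; numbers are replicates, grey ticks the background of that array, and the black bar left of each group its mean ± SD (n = 4). Usp10 is separated between diets near background, Usp7 is level, and in Usp15, Usp8 and Usp16 high fat diet pools 3 or 4 stand far below the other pools.

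Usp24 was split among the control diet pools, and all its high fat diet values lay under background. It read 5.96, 4.27, 5.47 and 4.25 in high fat diet pools and 8.38, 8.64, 4.50 and 4.43 in control diet pools, above background only in control diet pools 1 and 2. Its difference of -1.50 had an SE of 1.11 (limma adjusted p = 0.348), with a bound of at least 1.10-fold against background and no fold above 1 against the 99th percentile. Without control diet replicate 2 the difference was -0.78, and without control diet replicate 1 it was -0.87. Usp38 read 5.71, 6.04, 5.59 and 5.23 in high fat diet pools and 6.52, 6.27, 7.94 and 5.67 in control diet pools. Usp38 was above background on 0 high fat diet arrays and on 3 of 4 control diet arrays. The means differed by at least 1.19-fold with values raised to background, by no fold above 1 against the 99th percentile, and the limma adjusted p was 0.183. Without control diet replicate 3 the measured difference of -0.96 was -0.51.

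Usp48 had 2 probe sets that disagreed. The brighter one read 9.59, 11.19, 8.60 and 9.999 in high fat diet pools and 9.995, 10.17, 9.81 and 9.80 in control diet pools, a difference of -0.10 (limma adjusted p = 0.890). The other read 4.75, 10.04, 3.41 and 8.44 in high fat diet pools and 5.93, 10.30, 7.95 and 12.21 in control diet pools, a difference of -2.43 with an SE of 1.84. Both probe sets ranked the high fat diet pools in the same order, with pool 2 highest and pool 3 lowest, but they ranked the control diet pools differently, and the sign of the brighter one turned with scaling. No diet difference is read for Usp48. Usp28, a deubiquitinase known for stabilising Myc, read 4.77, 4.52, 4.53 and 4.68 in high fat diet pools and 4.20, 4.38, 4.25 and 4.46 in control diet pools. Its groups lay apart with no array above background. Of 10 measured members of the signalling list, 7 had differences below 0, their median was -0.17 against +0.22 over all tested probe sets, and 0 passed.

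The atypical members keep the protease fold but have been regarded as inactive or nearly so. Usp39, a splicing factor without deubiquitinase activity, read 6.19, 5.81, 6.12 and 8.94 in high fat diet pools and 5.87, 7.04, 5.89 and 6.57 in control diet pools. One pool, high fat diet replicate 4, set the sign, since the difference was +0.42 (limma adjusted p = 0.671) with it and -0.30 without it. The germline members Usp26, known from testis, and Usp29, an imprinted gene beside Peg3, were above background on no array. Usp29 read 4.26, 4.39, 4.87 and 4.64 in high fat diet pools and 4.11, 4.03, 4.24 and 4.19 in control diet pools.

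Usp37 and Usp43 belong to none of these lists. Usp37, a deubiquitinase of the cell cycle protein cyclin A, read 4.92, 4.91, 4.69 and 4.82 in high fat diet pools and 7.02, 6.07, 5.73 and 4.75 in control diet pools. No high fat diet pool lay above background, and control diet pools 1 and 2 did. The difference of -1.06 had an SE of 0.42 (limma adjusted p = 0.142), and no fold is given because the control diet mean lies below the background of the high fat diet arrays. Without control diet replicate 1 the difference was -0.68. Usp43 read 5.93, 5.89, 6.13 and 6.00 in high fat diet pools and 5.71, 5.67, 5.76 and 5.79 in control diet pools, with no array above background. The other 20 members, not given by pool here, differed by -0.90 to +1.01, with limma adjusted p from 0.126 to 0.809.

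Members at background had small positive differences in the deposited values, and their signs differed under other scalings of the arrays. All 13 members above background on no array had differences above 0, from +0.05 to +0.40, but 7 did with median centring, 8 with quantile normalization and 6 with cyclic loess. Among the 8 members whose high fat diet pools all read higher, 5 were above background on no array and 1, Usp2, on all 8 arrays. The same direction was found over the tested probe sets of the lowest level quartile, of which 88.0% lay above 0.

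The bright members had lower differences and more spread than the dim ones. Probe sets were divided into quartiles by their mean over all 8 arrays. The brightest quartile held 10 members (Usp4, Usp7, Usp8, Usp14, Usp15, Usp16, Usp25, Usp33, Usp48 and Usp53), of which 7 had differences below 0, or 70%, against 43.3% of the 4004 probe sets of that quartile. Below 0 lay 8 of the 10 with median centring (54.2% of the quartile), 6 with quantile normalization (41.5%) and 6 with cyclic loess (52.6%). Their median was -0.38 against +0.12 for the quartile. None of the 10 had an unadjusted limma p under 0.05 in either direction and none passed. In the second brightest quartile 7 of 13 members lay below 0, with a median of -0.05 against +0.29.

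The median of the 10 brightest members was -0.13 without high fat diet replicate 3, -0.19 without high fat diet replicate 1, -0.23 without high fat diet replicate 4 and -0.67 without control diet replicate 4. It was -0.63 with cyclic loess. High fat diet replicate 3 was the lowest of all 8 pools on 5 of these 10 members, and on 18.4% of all probe sets of the quartile. The array of replicate 3 also had the highest median over all tested probe sets, 5.96 where the other high fat diet arrays had 5.76 to 5.83 and the control diet arrays 5.60 to 5.71, and the highest background, 6.65. The fewest members lay above background there, 9, where the other high fat diet arrays had 14 or 15 and the control diet arrays 17 to 22. Of all tested probe sets, 4736 lay above background there, against 5317 to 6086 on the other high fat diet arrays. On the control diet arrays 5943 to 6636 of them did. With quantile normalization, which gives all arrays the same signal distribution, the median of the 10 brightest members was -0.41. With array weights it was -0.34, against -0.38 as reported. The part of this array's signal distribution in the members' differences was not tested.

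**Figure D4:**
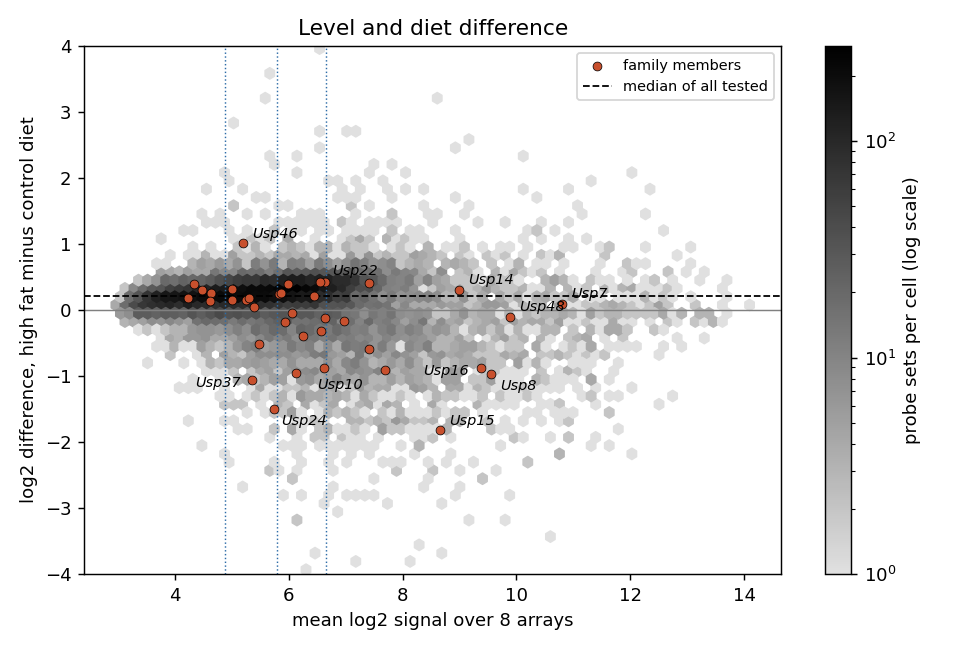
Mean log2 signal over 8 arrays (x axis) against the log2 difference, high fat diet minus control diet (y axis), for all 16015 tested probe sets as grey cells and for the 38 members as points; dotted lines divide level quartiles, the dashed line is the median difference, +0.22, and 4 probe sets lie beyond the axis limits of -4 and 4. Members in the lowest quartile sit near the dashed line and 7 of the 10 members right of the last dotted line lie below 0.

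Within a diet, members varied widely. The within-group SD, pooled over the diets, ran from 0.08 for Usp43 to 1.81 for Usp15, with a median of 0.29 against 0.21 for all tested probe sets. It was above 1 on 8 of 38 members, against 8.93% of all tested probe sets. Among the brightest quartile the median SD was 1.10 for members and 0.49 for all probe sets of that quartile. Usp7 (SD 0.22) was as steady as many dim members, while Usp8, Usp14, Usp15, Usp16, Usp25 and Usp33 each exceeded 1.

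Partners of the family and the rest of the ubiquitin system were read from 3 further lists. In these lists 0 genes passed limma in either direction: 0 of 18 measured partners, 0 of 28 other deubiquitinases and 0 of 30 ubiquitin, E1 and E2 genes. At an unadjusted p under 0.05, 2 partners read higher and 2 lower, 2 other deubiquitinases read higher and 0 lower, and 3 E1 and E2 genes read higher and 2 lower. Over all tested probe sets these shares were 30.1% higher and 1.79% lower, against 11.1% in both directions for the partners, 7.14% and 0% for the other deubiquitinases and 10% and 6.67% for the E1 and E2 genes. The medians of their differences were -0.14 for partners, -0.09 for other deubiquitinases and -0.10 for E1 and E2 genes, against +0.22 over all tested probe sets. These lists were also brighter, with median levels of 6.85, 6.57 and 7.42 against 5.79 over all tested. The brightest quartile of all tested had a median difference of +0.12. With the other scalings the medians of the lists ran from -0.41 to -0.11, against -0.001 to +0.06 over all tested.

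Stub1, a ubiquitin ligase of chaperones, read 7.45, 7.35, 7.69 and 7.49 in high fat diet pools and 6.80, 6.43, 7.24 and 6.76 in control diet pools, with groups apart (difference +0.69, limma adjusted p = 0.115). Stam, the endosomal partner of Usp8, read 6.46, 7.84, 6.39 and 6.69 in high fat diet pools and 8.36, 7.34, 7.91 and 7.54 in control diet pools. For Stam, high fat diet replicate 2 lay among the control diet values and the other 3 lay below them (difference -0.94, limma adjusted p = 0.137). Prpf8, a spliceosome protein with an inactive deubiquitinase domain, differed by -1.20 (limma adjusted p = 0.115).

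Ube2q2, a ubiquitin-conjugating enzyme, read 6.45, 9.13, 5.54 and 6.98 in high fat diet pools and 9.58, 8.84, 9.29 and 10.87 in control diet pools. It differed by -2.62 with an SE of 0.78 and did not pass (limma adjusted p = 0.117). Ube2f, a conjugating enzyme for the ubiquitin-like protein Nedd8, differed by +0.49 with groups apart, above background on all 8 arrays (limma adjusted p = 0.117). Ube2l6, a conjugating enzyme for Isg15, was above background on no array. Of the other deubiquitinases, Otub2 differed by +0.37 and lay above background on all 8 arrays (limma adjusted p = 0.130), while Yod1 and Tnfaip3 lay above it on none.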

How the data were processed

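The authors deposited log2 signals for 23332 probe sets on 8 arrays, made with RMA and Partek per the submitters' processing notes. The sources used here state neither versions nor a genome build. Per the labels' protocols, a PicoPure kit yielded the RNA, which went through 2 amplifications (Ovation PICO WTA, then TransPlex WTA). Amplifying little RNA repeatedly can widen the spread between pools.

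The 16015 probe sets with a platform gene symbol (14996 with 1 and 1019 with several) were fitted with limma 3.58.1 in R 4.3.3, two-sided, with Benjamini-Hochberg adjustment over all of them and a threshold of 0.05. Other probe sets (7317) entered 1 alternative. The fit was tested on simulated data. List genes were matched through a RefSeq table of GRCm38.p6.

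Members, role lists and other lists were chosen with earlier results of these data known. Values by pool are given for the 6 members with the smallest limma p in each direction, the 6 brightest, and 8 genes fixed by name (Usp36 not analysed here), and 3 genes were named per further list. Prpf8 and Usp1 were known from earlier results. Bounds raise values under background to it on each array. Alternatives changed the probe sets, scaling, variance model, replicate block and arrays left out; those for the median of the brightest members were added after seeing the data.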

Additional observations from a re-analysis of the deposited data

Results flagged for a closer look

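In groups of 4 pools, 10 of 94 groups checked (10.6%) held a pool whose gap to its nearest neighbour exceeded, as a share of the group's range, Dixon's critical value at the 95% level; chance gives about 1 in 20. Of these, 9 were family members, and most of the groups checked were those of the 38 members. The other groups checked were those of genes named from the further lists. The share of such groups was not computed over all tested probe sets.

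High fat diet replicate 3 read lowest on Usp8 (6.49 against 9.63 to 10.14 in the other high fat diet pools, ratio 0.859) and on Usp33 (4.99 against 7.82 to 8.26, ratio 0.866), and highest on Tnfaip3 (5.03 against 4.81 to 4.83, ratio 0.903). Replicate 4 of the same diet read highest on Usp25 (9.40 against 6.32 to 6.41, ratio 0.973), on Usp39 (8.94 against 5.81 to 6.19, ratio 0.881) and on Usp53 (8.17 against 7.35 to 7.48, ratio 0.839). Replicate 2 of that diet read highest on Usp46 (7.72 against 4.97 to 5.11, ratio 0.949) and lowest on Usp11 (4.58 against 4.79 to 4.82, ratio 0.892). Among control diet pools, replicate 2 read highest on Usp3 (8.25 against 5.60 to 6.04, ratio 0.836) and replicate 1 on Usp22 (6.76 against 6.29 to 6.35, ratio 0.872).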

How the results depend on the processing

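In all alternatives run, 0 family members and 0 genes of the further ubiquitin lists passed limma. At an unadjusted p under 0.05, the number of members reading higher, 8 as reported, was 1 with the filter on dim probe sets (15 members left) and 0 with median centring, quantile normalization and cyclic loess, and 5 to 9 with an array left out. The number reading lower, 2 as reported, was 1 with the filter, 4 with median centring, 4 with quantile normalization, 5 with cyclic loess and 1 to 3 with an array left out. Members with groups apart in the higher direction were 1, 1 and 0 with median centring, quantile normalization and cyclic loess, and 8 to 10 in fits without 1 array. In the lower direction they were 2 with each of these scalings and 1 to 3 in fits without 1 array. Over all tested probe sets, 7.07%, 8.94% and 3.35% had groups apart in the higher direction with these scalings, against 25.4% as reported. For the lower direction these shares were 2.623%, 1.892% and 3.403%, against 0.855% as reported. The members' median of +0.11 was -0.17 with the filter (-0.41 relative to all tested), -0.072 with median centring and -0.071 with cyclic loess. Over fits without 1 array it spanned +0.005 to +0.13, and relative to all tested -0.22 to -0.10. The brightest members' median ran from -0.67 to -0.13. Against the 99th percentile 5 members lay above background on all 8 arrays, not 8. Among unadjusted calls over all tested probe sets 94.4% were higher, against 67.3% with median centring, 76.8% with quantile normalization and 44.1% with cyclic loess. Over all 16015 tested probe sets 2066, 2081 and 1488 unadjusted calls were made with these scalings, against 5112 as reported. Lower calls were thus a larger part of the calls over all tested probe sets too, so no fall of the family is read from the members' counts.

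The sign of Usp7 (-0.092, median centring), Usp43 (-0.015, cyclic loess), Usp48 (+0.14 with quantile normalization, +0.023 with cyclic loess, +0.067 with array weights, and -0.55 to +0.31 without 1 array, the positive end being without high fat diet replicate 3), Usp14 (-0.18 to +0.75 without 1 array) and Usp39 (-0.30 to +0.74 without 1 array, both low ends without high fat diet replicate 4) was reversed, and the cause was not tested. As reported, Usp43 had groups apart with no array above background, and the differences of the other 4 lay within the spread between pools. The replicate block gave 0 members past the threshold, 6 higher and 2 lower at an unadjusted p. Pools with the same number deviated together at r between -0.019 and 0.084, so the numbers were not taken as pairs.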
